A study of Nothobranchius furzeri with 20 samples.

Results

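The 200 shortest genes expressed in the brain of the turquoise killifish (Nothobranchius furzeri) are described here, across 2 ages and a low dose of rotenone. Genes were first required to average at least 5 CPM (counts scaled to the library's total) over 20 libraries, which 14271 of the 26739 genes in the deposited table did. The 200 shortest of these were then taken, with a gene's length recovered from the ratio of its deposited count to its deposited RPKM (reads scaled to gene length and library total). All 200 had enough counts to be tested. Neither length nor this level was chosen on a difference between groups.

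All libraries came from the brains of male fish of strain MZM-04/10p, with 5 libraries in each of 4 groups: rotenone at 1% of the LC50 (the concentration lethal to 50% of animals) in fish of 27 weeks, the solvent DMSO in fish of 27 weeks, the same dose of rotenone in fish of 9 weeks, and DMSO in fish of 9 weeks. Rotenone blocks complex I, the first enzyme of mitochondrial electron transport. Counts summed to between 19433958 and 24159773 per library, so that 1 count in the smallest library was worth 0.0515 CPM. The labels do not say that each library is a separate fish, nor how long the fish were exposed, so p-values speak of the spread between libraries, which may be technical. The files give genes by identifier only, and 0 identifiers matched the RefSeq gene table of the species, so no gene is named, no marker of brain cells could be checked and no sequence is shown. Of the 20 libraries 7 stand apart by low levels of the longest genes, namely DMSO replicates 1 and 4 of 27 weeks, rotenone replicates 1 and 3 of 9 weeks and DMSO replicates 2, 3 and 4 of 9 weeks, and results are also given without them. In whole brain, fewer cells of a type and less RNA per cell cannot be told apart.

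As background, short protein-coding genes include those for ribosomal proteins, small subunits of the mitochondrial respiratory chain and secreted peptides, many of them among the most active genes of a cell. A gene model can also be short because the annotation holds only its coding part, or a piece of it, without the untranslated ends of the messenger RNA. The library kit enriches polyadenylated RNA, breaks it and does not mark strand, so reads of a short gene can come from an overlapping neighbour. Which of these kinds a given member belongs to is not known here. In mouse and human tissues, long transcripts have been reported to become relatively less abundant with age.

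Most of the 200 models had a length that coding sequence alone could have, though no sequence was available to check this. Lengths ran from 22 to 348 bases, with a median of 309, against a median of 3072 bases over all 14271 expressed genes. Of the 200, 184 (92.0%) had a length that is a multiple of 3, as a coding sequence without untranslated ends has. The share was 51.5% over all expressed genes, and 77 of the 200 longest had such a length. Genes near in length shared the trait: 93.7% of expressed genes of 22 to 552 bases, members included, and 91.2% of those of 552 to 807 bases. Lengths piled up just above 300 bases: 83 members measured 300 to 324 bases and 50 measured 325 to 348, whereas 15 measured 275 to 299. Only 4 members were under 100 bases long and 13 measured 100 to 199 bases. The last member and the first gene left out differed by a fraction of a base (347.997 and 348.000 by the ratio). In whole bases 9 expressed genes had a length of 348, of which 2 are members, and taking the length in whole bases exchanged 1 member.

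The members held a small share of the counts. Together they took 0.705% to 0.850% of a library's counts, while the 200 longest, of 12283 bases and above, took 3.10% to 4.33%. A longer gene gives more reads at the same number of transcripts, so these shares do not compare numbers of transcripts. Their mean levels ran from 5.02 to 571 CPM, with a median of 15.4, and 66 members lay below 10 CPM while 14 reached 100 CPM. Per kilobase of model the median member stood at 56.9 CPM. A high level per kilobase is set by the rule, since a gene of at least 5 CPM and at most 348 bases has at least 14.4 CPM per kilobase, already above the median of 11.2 over all expressed genes. The value also uses the length of the model, with or without untranslated ends. The 5 members with the most counts held 26.03% of the members' counts by mean CPM. They measured 321, 333, 300, 294 and 213 bases and averaged 571, 389, 357, 357 and 337 CPM, or 1167 to 1778 CPM per kilobase.

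**Figure D1:**
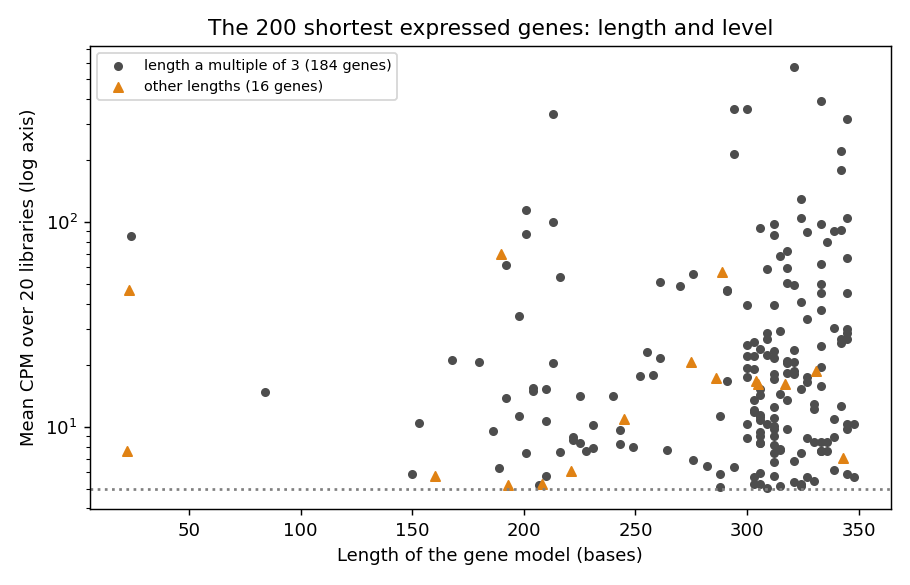
Length of the gene model (x, bases) against mean CPM over the 20 libraries (y, log axis) for the 200 shortest expressed genes, with the 184 models whose length is a multiple of 3 as circles, the 16 others as triangles and the minimum of 5 CPM as a dotted line. Most members crowd between 300 and 348 bases, and 3 models of 22, 23 and 24 bases stand apart at the left.

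The 3 shortest models, of 22, 23 and 24 bases, are far shorter than a messenger RNA. The 22-base model averaged 8.22 ± 0.462 CPM in rotenone fish and 7.01 ± 0.629 CPM in DMSO fish of 27 weeks, and 7.43 ± 1.35 and 7.96 ± 1.31 CPM in rotenone and DMSO fish of 9 weeks (SD, n = 5 each). The 23-base model averaged 43.6 ± 0.963 CPM in rotenone fish of 27 weeks and 49.14 ± 3.55 CPM in those of 9 weeks, without overlap, and 47.6 ± 5.14 and 46.2 ± 5.98 CPM in DMSO fish of 27 and 9 weeks. Neither passed the test for age, with edgeR adjusted p of 0.303 and 0.726 in DMSO fish and 0.382 and 0.121 in rotenone fish. The 24-base model was different: in rotenone fish it averaged 57.0 ± 12.5 CPM at 27 weeks and 105 ± 10.1 CPM at 9 weeks, without overlap, and fell by 0.88 on the log2 scale with an SE of 0.15 (edgeR adjusted p = 0.000213). DMSO fish had 76.8 ± 6.63 CPM at 27 weeks and 102 ± 22.4 CPM at 9 weeks. There the log2 change of -0.41 ± 0.15 missed the threshold (edgeR adjusted p = 0.0510). The changes in rotenone and DMSO fish differed by -0.47 ± 0.21 in log2, short of the threshold (edgeR adjusted p = 0.467). The longest member, of 348 bases, averaged 9.89 ± 0.767 CPM in rotenone fish and 11.3 ± 1.39 CPM in DMSO fish of 27 weeks, and 8.94 ± 0.633 and 11.4 ± 2.97 CPM in rotenone and DMSO fish of 9 weeks, with no comparison past the threshold. What RNA the reads over the 3 shortest models came from is not known, since a read longer than the model must also cover its surroundings.

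Within groups the members varied about as much as other genes. The coefficient of variation between the 5 libraries of a group, averaged over the 4 groups, had a median of 10.1% over the members and 9.70% over expressed genes. Genes with fewer counts vary more, so 4 classes of the members by level, of 50 each, were set beside all expressed genes in the same range of CPM. In the lowest class (5.02 to 8.39 CPM) the medians were 12.4% for members and 15.7% for expressed genes. In the classes between they were 10.7% against 12.2% and 8.87% against 9.61%, and in the highest (33.9 CPM and above) 7.74% against 7.70%. By group the members' median was 8.28% in rotenone fish and 10.6% in DMSO fish of 27 weeks, and 10.5% in rotenone fish and 9.56% in DMSO fish of 9 weeks. Expressed genes, not matched for level, had 7.48%, 10.5%, 9.96% and 9.565% in the same order.

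A few members varied far more than the rest. The coefficient of variation exceeded 50% in 7 of the 200 (3.50%), against 2.14% of expressed genes. Neither this contrast nor the next is matched for level. The members' median of 15.4 CPM lies below the 30.4 CPM of expressed genes. In 2 members (1.00%, against 0.350% of expressed genes) the libraries fell into a high and a low set, with a gap above 1.5 in log2 CPM and at least 3 libraries on each side. The first, a 318-base model, lay between 7.86 and 20.4 CPM in 13 libraries, and between 0.792 and 1.88 CPM in the remaining 7. It was high in 5 of 5 rotenone and 3 of 5 DMSO libraries of 27 weeks, and in 3 of 5 rotenone and 2 of 5 DMSO libraries of 9 weeks. The second was Nfu_g_1_023319, which was high in 0 of 5 rotenone and 1 of 5 DMSO libraries of 27 weeks, and in 4 of 5 rotenone and 3 of 5 DMSO libraries of 9 weeks.

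In DMSO fish, more members fell than rose between 9 and 27 weeks. At 27 weeks 11 members were higher and 45 lower (edgeR quasi-likelihood test, Benjamini-Hochberg adjusted p below 0.05), so that 28.0% were called, against 23.5% of all 19452 genes tested and 27.5% of expressed genes. The share called was thus near the background, and the direction was where the members stood apart as a description: 22.5% were lower, against 13.8% of all tested and 17.2% of expressed genes, and 5.50% were higher, against 9.64% and 10.3%. Genes next in length shared this: of the 400 shortest, members included, 20 were higher and 90 lower. With the 200 shortest taken at a mean of at least 1 CPM, only 24 of 200 were lower and 6 higher, 15% called in all. That share lower is below the 13.8% of all tested genes, so the excess of falls over the background depends on the minimum level. No share over all genes of at least 1 CPM is given here. Over the members the median log2 change was -0.10, against 0.01 over all tested genes, -0.01 over expressed genes and 0.11 over the 200 longest. Of the 200, 138 had a change below 0, where 51.6% of expressed genes did. Changes were small: the median was -0.34 for members that fell and 0.47 for those that rose, and 43 of the 45 and 10 of the 11 were within 2-fold. Groups did not overlap for 33 members (16.5%, against 16.2% of expressed genes). Scaled by library totals rather than TMM (a trimmed mean of ratios between libraries) 13 were higher and 36 lower. Without the 7 libraries low in long genes, 2 libraries were left at 9 weeks and 3 at 27 weeks, and 1 member was higher and 11 lower (12 of 200, against 6.77% of expressed genes), with a median log2 change of -0.09, against -0.00 for expressed genes.

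Nfu_g_1_000171, a model of 198 bases, was the member that fell most in DMSO fish among those whose groups did not overlap. It stood at 8.21, 5.69, 9.39, 7.66 and 7.18 CPM in DMSO libraries of 27 weeks, against 13.1, 16.01, 14.96, 14.01 and 14.5 CPM at 9 weeks. Every 27-week library lay below every 9-week library. It fell to 0.525 of the 9-week level, or by 0.93 on the log2 scale with an SE of 0.10 (edgeR adjusted p = 1.76e-05). In rotenone fish the same gene stood at 5.83, 5.85, 5.57, 5.89 and 6.45 CPM at 27 weeks, against 17.3, 18.7, 17.3, 17.6 and 15.2 CPM at 9 weeks, with a log2 change of -1.54 ± 0.10 (edgeR adjusted p = 3.31e-08). These changes differed by -0.61 ± 0.14 in log2, which missed the threshold (edgeR adjusted p = 0.131).

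Nfu_g_1_001584, of 309 bases, also fell at both treatments. It averaged 23.2 ± 3.72 CPM in DMSO fish of 27 weeks and 36.4 ± 4.32 CPM in those of 9 weeks (SD, n = 5 each). The 27-week libraries lay between 17.6 and 27.0 CPM, all below the lowest 9-week library at 29.3 CPM. It fell by 0.65 in log2 with an SE of 0.11 (edgeR adjusted p = 0.000521), and by 0.48 without the 7 libraries low in long genes, where the call was lost (edgeR adjusted p = 0.0592, range over 19 alternatives 2.61e-06 to 0.0592). In rotenone fish it averaged 21.09 ± 2.58 CPM at 27 weeks and 35.0 ± 2.57 CPM at 9 weeks, a log2 change of -0.73 ± 0.11 (edgeR adjusted p = 7.74e-05).

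The rises in DMSO fish were led by Nfu_g_1_017037 and Nfu_g_1_009181. Nfu_g_1_017037, of 333 bases, stood at 40.7, 4.43, 3.53, 3.83 and 3.21 CPM at 27 weeks, against 2.82, 2.47, 2.44, 3.16 and 2.22 CPM at 9 weeks. At 9 weeks no library of either treatment reached 5 CPM. The gene thus passed that minimum only through 27-week libraries, so its rise is not independent of the rule. The groups did not overlap, but only replicate 1 of 27 weeks was high. The log2 change of 2.08 ± 0.71 (SE; edgeR adjusted p = 0.0404) became 0.52 without that library (edgeR adjusted p = 0.461), and the adjusted p ran from 0.0110 to 0.720 over 19 alternatives. Nfu_g_1_009181, of 303 bases, stood at 16.9, 12.8, 13.6, 15.5 and 9.63 CPM at 27 weeks, against 7.999, 7.36, 7.74, 6.82 and 9.34 CPM at 9 weeks. All 27-week libraries lay above all 9-week libraries, and the log2 change was 0.80 ± 0.21 (SE; edgeR adjusted p = 0.0104). The call was lost without DMSO replicates 1 and 4 of 27 weeks and without all 7 libraries low in long genes (log2 change 0.48, edgeR adjusted p = 0.205). In rotenone fish this gene averaged 13.9 ± 1.38 CPM at 27 weeks and 11.9 ± 4.99 CPM at 9 weeks. These groups overlapped (log2 change 0.22 ± 0.21, edgeR adjusted p = 0.439). The difference between the treatments in its change with age was not called, as for all 200 members.

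Age was again accompanied by more falls than rises among the members in rotenone fish. The group means of this comparison come from other libraries than those in DMSO fish, but the spread was estimated over all 20 libraries. Fitted on the 10 libraries of each treatment alone, 20 members were higher and 60 lower in rotenone fish, and 5 were higher and 35 lower in DMSO fish. For these fits, and for the fit below without 2 libraries, no share over all genes is given. At 27 weeks 20 members were higher and 61 lower, 40.5% of the 200, against 31.1% of all tested and 36.5% of expressed genes. Lower members made up 30.5%, against 18.2% of all tested and 21.7% of expressed genes, and higher ones 10.0%, against 12.9% and 14.8%. Of the 400 shortest, members included, 39 were higher and 122 lower. With the 200 shortest taken at a mean of at least 1 CPM, 18 of 200 were higher and 31 lower, 24.5% called in all. That share lower is again below that of all tested genes (18.2%). The median log2 change was -0.10 over the members, 0.01 over all tested genes and 0.17 over the 200 longest, of which 51 rose and 9 fell. Without rotenone replicates 1 and 3 of 9 weeks, chosen for their low levels of long genes after these were seen, 9 members were higher and 41 lower, 50 in all with 3 libraries left at 9 weeks. Without all 7 libraries low in long genes 16 were higher and 44 lower (60 of 200, against 32.6% of expressed genes), with a median log2 change of -0.08, against -0.00 for expressed genes.

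Falls in the rotenone fish were led by a pair of genes that were high in some young libraries and low in others. Nfu_g_1_023319, of 330 bases, stood at 0.188, 0.168, 0, 0.292 and 0.595 CPM in rotenone libraries of 27 weeks, against 31.3, 4.67, 4.86, 52.8 and 0.914 CPM at 9 weeks. The 27-week values correspond to 0 to 13 counts, and the 9-week libraries spread widely, the lowest of them just above the highest of 27 weeks. Its log2 change was -6.19 ± 1.62 (SE; edgeR adjusted p = 0.00722). No 27-week library of either treatment reached 5 CPM. The gene thus passed that minimum only through 9-week libraries, where it was higher, so its fall is not independent of the rule. In DMSO fish it stood at 0.185, 0.167, 0.744, 4.36 and 0.253 CPM at 27 weeks, against 120.2, 0.855, 0.522, 17.7 and 19.6 CPM at 9 weeks, where the groups overlapped (log2 change -4.80 ± 1.37, edgeR adjusted p = 0.0172).

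Nfu_g_1_019445, of 342 bases, stood at 1.97, 2.57, 2.78, 5.64 and 6.23 CPM in rotenone libraries of 27 weeks, against 47.7, 15.7, 9.89, 65.8 and 6.40 CPM at 9 weeks. The lowest 9-week library lay just above the highest of 27 weeks. Most 27-week libraries of both treatments lay below 5 CPM. The gene's mean of 26.8 CPM over 20 libraries thus rests on 9-week libraries, so its fall is not independent of the rule. Its log2 change was -2.92 ± 0.95 (SE; edgeR adjusted p = 0.0266), a call lost without any 1 of 5 libraries. These were rotenone replicates 1, 2 and 3 of 27 weeks and replicates 1 and 4 of 9 weeks, and the adjusted p ran from 0.00363 to 0.0745 over 19 alternatives. In DMSO fish it stood at 4.15, 1.63, 5.16, 11.3 and 3.63 CPM at 27 weeks, against 254.0, 6.03, 5.26, 52.9 and 29.5 CPM at 9 weeks (log2 change -3.75 ± 0.96, edgeR adjusted p = 0.00925). The libraries in which it was highest at 9 weeks, replicates 1 and 4 of rotenone fish and 1, 4 and 5 of DMSO fish, were also those in which Nfu_g_1_023319 was highest.

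Rises in rotenone fish were led by Nfu_g_1_017037 and Nfu_g_1_010089. Nfu_g_1_017037 stood at 5.45, 38.1, 4.43, 11.9 and 10.8 CPM in rotenone libraries of 27 weeks, against 2.64, 3.52, 1.94, 2.92 and 2.61 CPM at 9 weeks. All 27-week libraries lay above all 9-week libraries, replicate 2 far above. Since all 9-week values lay below 5 CPM, this rise too is not independent of the rule. The log2 change was 2.38 ± 0.71 (SE; edgeR adjusted p = 0.0163), and 1.58 without replicate 2 of 27 weeks (edgeR adjusted p = 0.0802), within a range of 0.00251 to 0.0923 over 19 alternatives. Nfu_g_1_010089, of 345 bases, stood at 10.0, 8.38, 8.04, 8.73 and 7.60 CPM at 27 weeks, against 2.96, 4.82, 3.54, 3.97 and 5.399 CPM at 9 weeks. Its log2 change of 1.05 ± 0.20 (SE; edgeR adjusted p = 0.000588) was called in all 19 alternatives. The gene's mean of 5.90 CPM over 20 libraries was near the minimum of 5 CPM, and rotenone libraries of 9 weeks lay mostly below that. Its place in the set thus leans on the 27-week rotenone libraries, and its rise is not wholly independent of the rule in any alternative. In DMSO fish this gene averaged 5.88 ± 1.21 CPM at 27 weeks and 5.00 ± 1.45 CPM at 9 weeks and was not called (log2 change 0.24 ± 0.20, edgeR adjusted p = 0.419). Its changes in rotenone and DMSO fish differed by 0.81 ± 0.28 in log2, short of the threshold (edgeR adjusted p = 0.324).

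**Figure D2:**
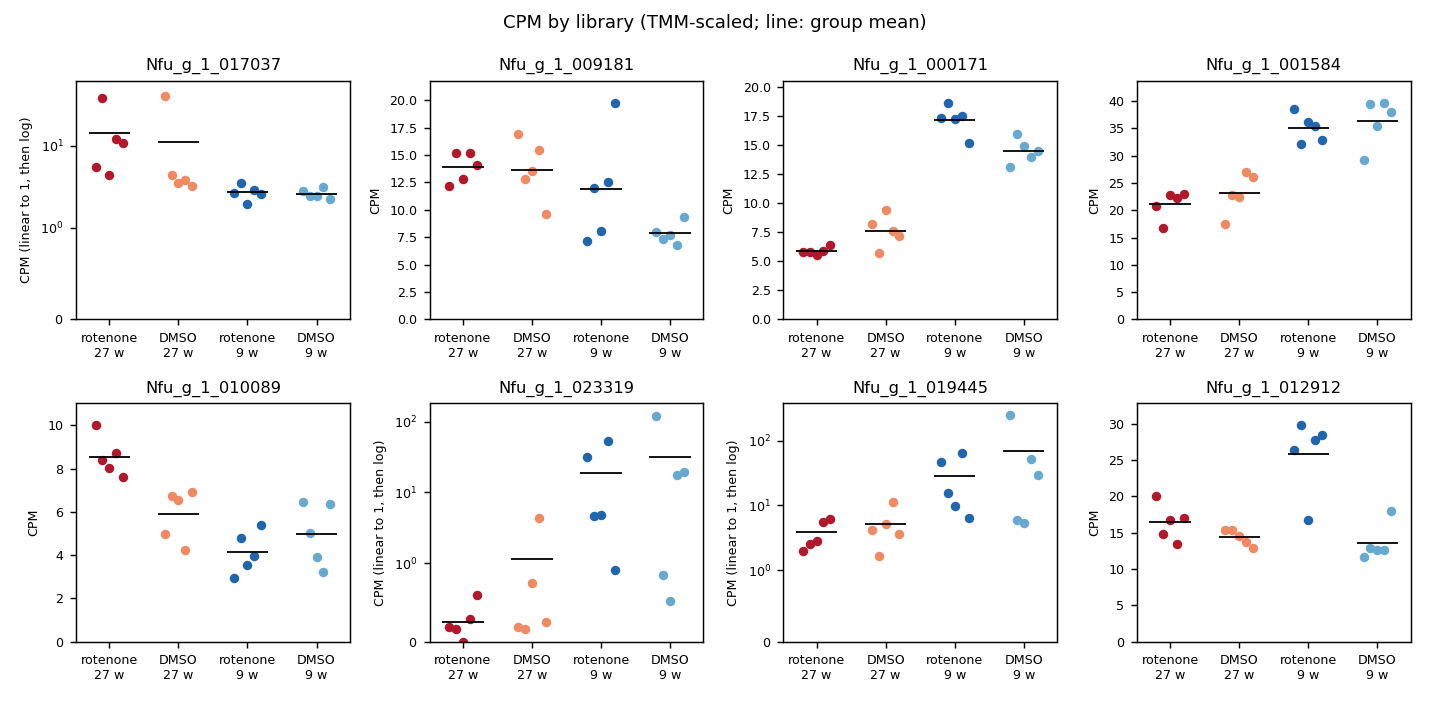
CPM in each library (y; linear axis, or linear to 1 and log above for the 3 genes with the widest range) of 8 members, with 5 libraries per group as points and the group mean as a line. Nfu_g_1_000171 and Nfu_g_1_001584 are lower in all 27-week libraries than in any 9-week library, whereas Nfu_g_1_023319 and Nfu_g_1_019445 spread widely among 9-week libraries.

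The overlap of the calls for age between the treatments was close to that of expressed genes. Of the 56 called in DMSO fish and the 81 called in rotenone fish, 42 were called in both, 75.0% and 51.9% of these lists, against 70.8% and 53.2% for expressed genes. They fell in both in 35 cases and rose in both in 7, with 0 in opposite directions, where the 2774 expressed genes called in both fell in 1878 cases, rose in 887 and moved in opposite directions in 9. Those that fell in both had a median log2 change of -0.42 in rotenone fish and -0.35 in DMSO fish. Over all 200 members 160 (80.0%) had the same direction in both treatments, against 79.4% of expressed genes. Neither comparison called 105 of the members (52.5%, against 55.4% of expressed genes).

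**Figure D3:**
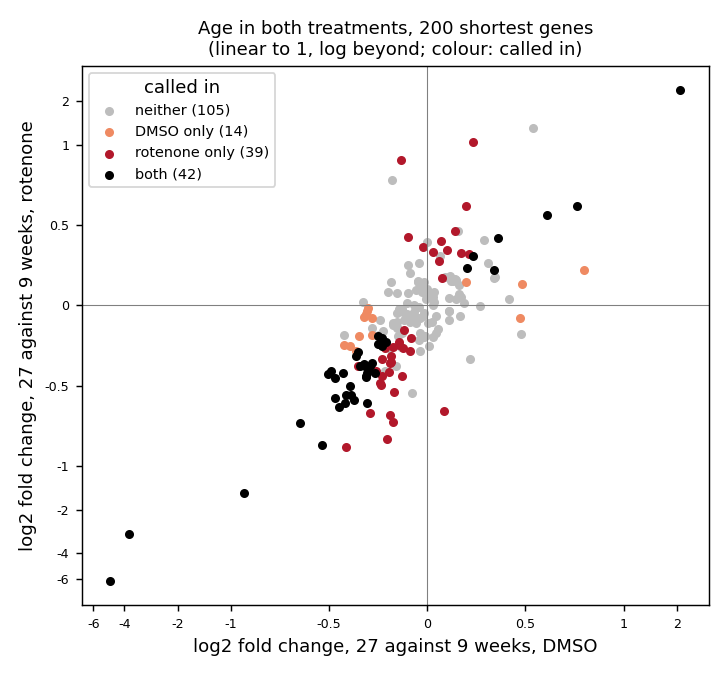
Log2 fold change between 27 and 9 weeks in DMSO fish (x) and in rotenone fish (y) for the 200 shortest expressed genes, on axes linear to 1 and log beyond, coloured by the comparison in which a gene was called. The 42 genes called in both lie in the lower left (35) and upper right (7).

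The median change with age was below 0 in every class of length and of level among the members, in both treatments. In DMSO fish, where 17.2% of expressed genes fell and 10.3% rose, 7 of the 13 members of 100 to 199 bases fell and 0 rose, with a median log2 change of -0.28. Of the 50 members of 200 to 299 bases 9 fell and 2 rose, and of the 133 of 300 bases and above 28 fell and 9 rose, with a median of -0.09 in each class. The share that fell in these larger classes was thus near that of expressed genes. In rotenone fish the medians of these 3 classes were -0.19, -0.08 and -0.09. By level, the median in DMSO fish was -0.08 in the lowest of the 4 level classes and -0.14 in the highest, where expressed genes in the same CPM ranges had medians of 0.07 and -0.04. In rotenone fish these medians were -0.02 and -0.16, against 0.04 and -0.01 for expressed genes.

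Among the 14 members of at least 100 CPM, a limit set after the values were seen, 1 rose and 3 fell in DMSO fish (21.4% lower, against 22.4% of the 2356 expressed genes of that level). In rotenone fish 1 rose and 5 fell (35.7% lower, against 23.4%). Of the 5 with the most counts, the one with the most, of 321 bases, averaged 576 ± 36.0 CPM in rotenone fish and 611 ± 54.1 CPM in DMSO fish of 27 weeks, and 548 ± 30.6 and 547 ± 54.8 CPM in rotenone and DMSO fish of 9 weeks (SD, n = 5 each). It was not called for age (edgeR adjusted p = 0.111 in DMSO fish and 0.469 in rotenone fish). The next, of 333 bases, averaged 442 ± 52.8 CPM in DMSO fish of 27 weeks and 350 ± 28.2 CPM in those of 9 weeks, and rose by 0.34 ± 0.07 in log2 (SE; edgeR adjusted p = 0.00337). It rose in rotenone fish too, by 0.22 ± 0.07 (edgeR adjusted p = 0.0322). The other 3 were not called for age in either treatment, with log2 changes of 0.00 to 0.14 in DMSO fish and -0.11 to 0.04 in rotenone fish.

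Across expressed genes the median change with age was lowest among the shortest and highest among the longest genes, and the members sit at the short end. When the 14270 expressed genes tested were put in 20 bins by length, the median log2 change in DMSO fish was -0.09 in the first bin (22 to 552 bases) and 0.07 in the last (9217 bases and above). In rotenone fish the values were -0.09 and 0.12. The same 2 bins had medians of -0.06 and 0.12 for rotenone against DMSO at 27 weeks, and of -0.03 and 0.05 at 9 weeks. In all 4 comparisons the medians were below 0 in the first 4 bins and above 0 in the last 4. Between these ends the medians for age did not rise steadily. In rotenone fish genes of 1316 to 1587 bases had a median of 0.01, and those of 3072 to 3412 bases -0.05. In DMSO fish genes of 1864 to 2168 bases had -0.01, and those of 2470 to 2763 bases -0.03. Scaled by library totals, the medians of the first bin were -0.06 and -0.08 for age in DMSO and in rotenone fish, and those of the last bin 0.09 and 0.14. Without the 7 libraries low in long genes the medians of the first and last bins were -0.07 and 0.06 for age in DMSO fish and -0.08 and 0.07 in rotenone fish. They were then -0.02 and 0.02 for rotenone at 27 weeks and -0.01 and 0.01 at 9 weeks. The 7 libraries were chosen by their levels of long genes and lie unevenly in the groups. Smaller medians without them are thus partly set by that choice and test nothing. These comparisons share groups pairwise, so they are not independent of each other, and genes are not replicates.

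**Figure D4:**
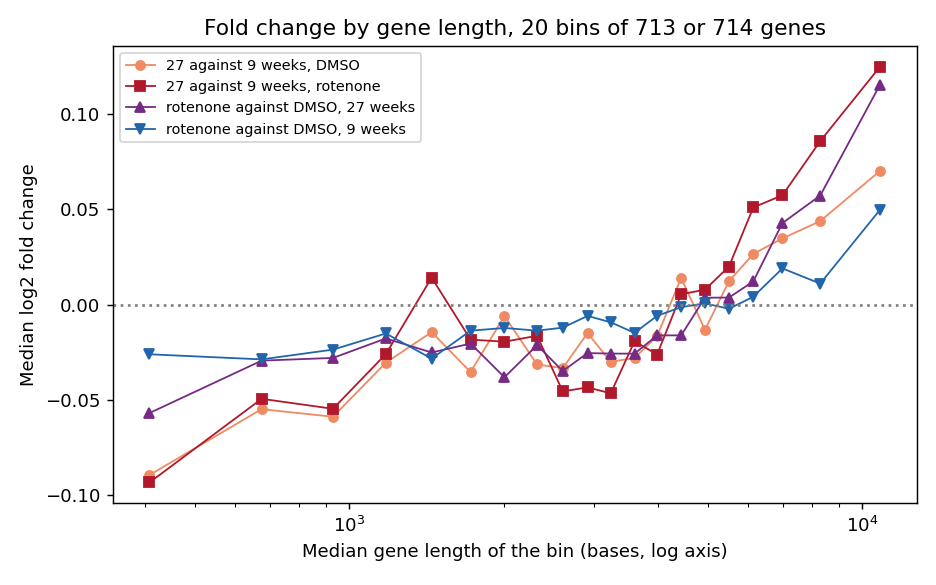
Median log2 fold change (y) of expressed genes in 20 bins of gene length (x, bin median in bases, log axis) for age in both treatments and for rotenone at both ages. In all 4 comparisons the shortest bin lies below 0 (-0.09 to -0.03) and the longest above 0 (0.05 to 0.12).

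Libraries also differed along length within groups. For each library the median over members of log2 CPM, each gene centred on its mean over the 20 libraries, ran from -0.12 to -0.04 in rotenone fish of 27 weeks and from -0.10 to 0.04 in DMSO fish of 27 weeks. At 9 weeks it ran from -0.01 to 0.10 in rotenone fish and from 0.01 to 0.14 in DMSO fish. The ages did not overlap in rotenone fish, and in DMSO fish only replicate 4 of 27 weeks, at 0.04, reached into the 9-week range. A parting of the ages was not particular to the members. Over all expressed genes this median ran from -0.021 to -0.005 at 27 weeks and 0.003 to 0.041 at 9 weeks in DMSO fish. In rotenone fish it ran from -0.011 to 0.002 and from -0.001 to 0.018, so the members differed in the size of the shift. The same median over the 200 longest genes ran from 0.08 to 0.25 in rotenone fish and from -0.21 to 0.21 in DMSO fish of 27 weeks, and from -0.19 to 0.09 and from -0.26 to 0.07 in rotenone and DMSO fish of 9 weeks. Libraries low in long genes were DMSO replicates 1 and 4 of 27 weeks (-0.20 and -0.21), rotenone replicates 1 and 3 of 9 weeks (-0.13 and -0.19) and DMSO replicates 2, 3 and 4 of 9 weeks (-0.26 to -0.14). The 318-base member with distinct high and low levels was low in exactly these 7 libraries. In them the longest genes had medians of -0.26 to -0.13, against 0.01 to 0.25 in the other 13 libraries. Its low libraries were 0 of 5 rotenone and 2 of 5 DMSO libraries of 27 weeks, and 2 of 5 rotenone and 3 of 5 DMSO libraries of 9 weeks. The labels hold no measure of RNA quality. The members' median log2 change with age was -0.09 in DMSO fish and -0.08 in rotenone fish without these 7 libraries, against -0.10 in each with them. Without DMSO replicates 1 and 4 of 27 weeks, 7 members were higher and 42 lower with age in DMSO fish, and the median log2 change was -0.13. No share over all genes is given for that fit.

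**Figure D5:**
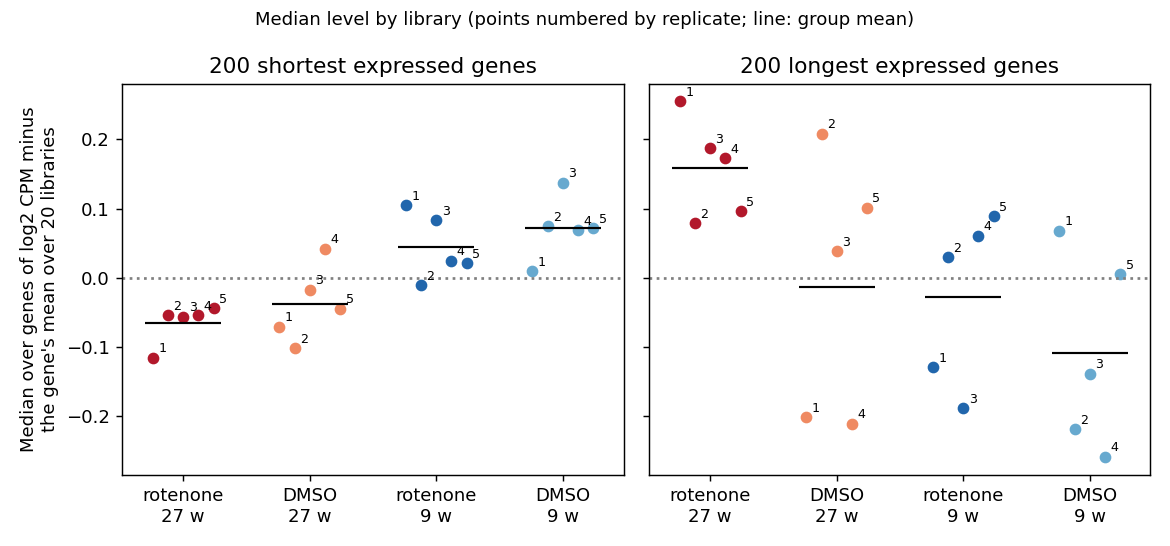
Median over genes of centred log2 CPM (y) in each library, for the 200 shortest (left) and 200 longest (right) expressed genes, by group, with points numbered by replicate and the group mean as a line. The shortest genes are lower in 27-week than in 9-week libraries in both treatments, except that DMSO replicate 4 of 27 weeks lies within the 9-week range, and DMSO libraries of 27 weeks spread from -0.21 to 0.21 for the longest genes.

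Rotenone at 27 weeks changed 0 members by the edgeR test, where 0.391% of all tested and 0.498% of expressed genes were called. An unadjusted p below 0.05 was seen for 33 members (16.5%, against 14.4% of all tested and 16.2% of expressed genes), and DESeq2 called 3, all lower. Leaving out DMSO replicate 1 gave 3 members, all higher, and leaving out DMSO replicate 2 gave 1, which was lower. Shares over all genes under DESeq2 or without these libraries are not given here, so these counts are not read as a trait of the members. The median log2 difference over the members was -0.04, against -0.01 over all tested genes and 0.16 over the 200 longest. Without the 7 libraries low in long genes these medians were -0.02 over the members, -0.01 over all tested genes and 0.02 over the 200 longest. The last is partly set by the choice of these libraries, which were picked by their levels of those genes. The member with the smallest p was Nfu_g_1_000171, which averaged 5.92 ± 0.325 CPM in rotenone fish and 7.62 ± 1.36 CPM in DMSO fish (SD, n = 5 each), a log2 difference of -0.36 ± 0.10 (SE; edgeR adjusted p = 0.116). DMSO replicate 2, at 5.69 CPM, lay within the rotenone range. At 9 weeks the gene averaged 17.2 ± 1.26 CPM in rotenone fish and 14.5 ± 1.07 CPM in DMSO fish.

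Rotenone at 9 weeks changed 1 member (0.500%), against 0.0257% of all tested and 0.0280% of expressed genes. Nfu_g_1_012912, of 300 bases, stood at 26.4, 29.8, 16.8, 27.8 and 28.4 CPM in rotenone libraries, against 11.7, 12.9, 12.6, 12.6 and 18.01 CPM in DMSO libraries. It is named although its groups overlapped: rotenone replicate 3 lay below DMSO replicate 5. The mean was 1.91 times as high with rotenone, a log2 difference of 0.93 ± 0.14 (SE; edgeR adjusted p = 0.0198). The call was lost without any 1 of 8 of the 10 libraries and held without rotenone replicate 3 or DMSO replicate 5, and was lost without the 7 libraries low in long genes (edgeR adjusted p = 0.152), with adjusted p from 4.23e-06 to 0.206 over 19 alternatives. At 27 weeks the gene averaged 16.4 ± 2.50 CPM in rotenone fish and 14.4 ± 1.04 CPM in DMSO fish (log2 difference 0.19 ± 0.14, edgeR adjusted p = 0.548). An unadjusted p below 0.05 was seen for 19 members (9.50%, against 6.99% of all tested and 7.78% of expressed genes). DESeq2 called 2 members, both higher, with no share over all genes given beside them.

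The effect of rotenone differed between the ages for 0 members by the edgeR test, where 0.0206% of all tested and 0.0280% of expressed genes were called. An unadjusted p below 0.05 was seen for 18 members (9.00%, against 10.0% of all tested and 10.8% of expressed genes), and DESeq2 called 2, both with a negative difference. Leaving out DMSO replicate 2 of 27 weeks gave 1 member by edgeR. For these 2 settings no share over all genes is given. Nfu_g_1_012912 had a difference of -0.74 ± 0.20 between its log2 effects at 27 and 9 weeks (SE; edgeR adjusted p = 0.211).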

How the data were processed

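The 20 brain libraries were made with Illumina's TruSeq kit for RNA, version 2, per the labels' protocols. The submitters' processing notes list featureCounts 1.4.6-p4, STAR 2.4.1d and bcl2fastq 1.8.4. Build, annotation, read length and strand setting: not given in the sources used here. The authors deposited whole-number counts per gene, not normalized. The deposited RPKM values were computed by the authors with library totals in a rotating order: 99.997% of values above 0 were recovered within 0.0011 that way, against 7.71% with each library's own total. They served only as an alternative and for lengths, where the median ratio that chose the members differed from the whole-base length by at most 0.301%.

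Groups came from the age and treatment labels, and replicate numbers follow accession order and pair nothing. Libraries of a group differed beyond sampling noise (chi-square per degree of freedom 7.80 to 57.1 over 40 pairs). Genes kept by filterByExpr (19452) were scaled by TMM (factors 0.980 to 1.02) and tested in edgeR 4.0.16 (R 4.3.3) with a robust quasi-likelihood model of 4 group means over all 20 libraries. Adjusted p-values are Benjamini-Hochberg over all genes tested. A run on simulated counts, for age in DMSO fish only and without library shifts along length, required only that large changes be recovered. It set no limit on false calls and is not used as support here. CPM are TMM-scaled, except the mean CPM that chose the members and shares of counts, which use library totals. Centred log2 CPM used a prior count of 2. Alternatives were DESeq2 1.42.0, limma 3.58.1 on log2(RPKM + 1), other scalings, filters, definitions of the members and left-out libraries, including a fit without the 7 libraries low in long genes that was added after the data were seen. Members and tests were chosen with earlier results of these data known. Named were, per comparison, at most 2 called members in each direction with the largest change and no overlap between groups, and, by length, the shortest, the longest and the 5 with the most counts; Nfu_g_1_012912, the 2 next shortest and the 318-base model were added after their values were seen.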

Additional observations from a re-analysis of the deposited data

Results flagged for a closer look

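In 44 groups of 5 libraries, those of the 8 genes named by the tests and of 3 library measures, the library farthest from the others was compared with its neighbour, and in 8 its gap exceeded 0.71 of the whole range. Chance gives about 1 in 20, and genes chosen for large changes share libraries, so the number tests nothing. Nfu_g_1_017037 stood at 38.1 CPM in rotenone replicate 2 of 27 weeks, with the nearest library at 11.9, and at 40.7 CPM in DMSO replicate 1 of 27 weeks, with the nearest at 4.43. Nfu_g_1_023319 stood at 4.36 CPM in DMSO replicate 4 of 27 weeks, with the nearest at 0.744, and at 120.2 CPM in DMSO replicate 1 of 9 weeks, with the nearest at 19.6. Nfu_g_1_019445 stood at 254.0 CPM in that same 9-week library, with the nearest at 52.9. Nfu_g_1_012912 stood at 16.8 CPM in rotenone replicate 3 of 9 weeks, below its neighbour at 26.4, and at 18.01 CPM in DMSO replicate 5 of 9 weeks, above its neighbour at 12.9. The median centred log2 CPM over all members was -0.12 in rotenone replicate 1 of 27 weeks, with the nearest at -0.06.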

How the results depend on the processing

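No paired analysis was possible because the labels give no replicate numbers shared between groups. The number of members called for age in DMSO (56) was 12 without the 7 libraries low in long genes, 17 from deposited RPKM and 30 when members were taken at a mean of at least 1 CPM. In rotenone fish (81) it was 49 at that lower limit and 50 without rotenone replicates 1 and 3 of 9 weeks. Taking the 100 or 400 shortest genes gave 28 and 110 calls for DMSO and 37 and 161 for rotenone, in sets of other sizes. At the limit of 1 CPM the median log2 change was -0.0236 in DMSO and -0.0430 in rotenone fish. Leaving out single libraries gave 40 to 59 calls in DMSO and 69 to 84 in rotenone fish, with medians of -0.14 to -0.09 and -0.11 to -0.08. For rotenone at 27 weeks the count (0) was 3 with DESeq2, 2 without DMSO replicates 1 and 4, 1 among the 400 shortest and 0 to 3 without 1 library. For rotenone at 9 weeks (1) it was 2 with DESeq2, 0 in a fit of 10 libraries or without the 7 and 0 to 1 without 1 library. For the interaction (0) it was 2 with DESeq2 and 0 to 1 without 1 library. The members' mean share of counts, 0.773%, was 0.363% and 1.32% at limits of 1 and 10 CPM, and 0.338% and 2.24% for the 100 and 400 shortest. Values for other sets follow from the change of set, and the deposited and recomputed RPKM differ in the library totals used. For the others the cause was not tested. No gene named by the tests changed direction in the comparison that named it, in any setting run. Other named genes and comparisons were not followed over the settings. Without DMSO replicates 1 and 4 of 27 weeks Nfu_g_1_009181 changed by 0.60 (edgeR adjusted p = 0.0856, range 0.00151 to 0.205). Settings that left out 2 or 7 libraries were chosen after the data were seen. Shares over all genes stand beside member counts only for the main fit and the fit without the 7 libraries. Depth limits mainly Nfu_g_1_023319, with 0 to 13 counts in rotenone libraries of 27 weeks; such limits cover counting error only.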
